A study of Mus musculus with 18 samples.

Results

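The cytosolic ribosomal protein mRNAs are the messages for the proteins of the large (60S) and small (40S) subunits of the cytosolic ribosome. Members were the mm10 RefSeq protein-coding genes whose symbol is Rpl or Rps followed by a digit, with Rplp0, Rplp1, Rplp2, Rpsa and Rack1 added and with the Rps6k kinases and Rps19bp1 left out. The rule gave 91 of 21013 protein-coding genes, 56 of the 60S and 35 of the 40S subunit. A site was a called 5-methylcytosine (m5C) position, and 147 of the 18059 distinct sites in exons of protein-coding genes lay in a member's exon on its strand. These 147 sites fell in 30 of the 91 genes.

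The samples were labelled as neurons isolated from the cerebral cortex of C57BL/6 mouse fetuses at day 18 of pregnancy. Controls were untreated, and the treated neurons were kept in glucose-free medium under hypoxic gas for 1.5 h or 3 h and then in normal medium for 24 h (oxygen and glucose deprivation with reoxygenation, called OGD/R 1.5 h or OGD/R 3 h here). Labels describe the hypoxic gas as 94% N2, 21% O2 and 5% CO2, which sum to 120%, so the oxygen level is uncertain. Each group had 3 bisulfite libraries of rRNA-depleted total RNA, and bisulfite turns unmethylated cytosine into uracil while m5C stays cytosine.

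Each library is a list of called sites with a score, and the depth per library is unknown. The lists held 5907 to 6254 sites in control, 5423 to 5745 in OGD/R 1.5 h and 7266 to 7772 in OGD/R 3 h. The score rises with coverage and with methylation level at once, from 0 to a cap of 1000, and is not a methylation level. A cytosine without a call may be unmethylated or too thinly covered, and these cannot be told apart. The supplement of the study calls the libraries of a group sequencing pool replicates. Each group was therefore counted as 1 sample of its condition, and no p was computed. Even as independent samples, 3 libraries against 3 could not reach a two-sided exact p under 0.10.

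The labelled cell type was checked against marker genes. None of 14 neuron markers held a site in any library, among them Tubb3, Map2, Rbfox3, Snap25 and Syn1. Of 9 markers of astrocytes and other glia, Aldh1l1 alone held sites, with 1 or 0 per library, and Gfap, Aqp4 and Mbp held none. All 18 markers of intestinal epithelium held sites, summing to 111, 110 and 98 in the control libraries, 67, 67 and 77 in OGD/R 1.5 h and 222, 201 and 220 in OGD/R 3 h, with Fcgbp as the gene with most sites (124 distinct). Site lists do not measure expression. The study's methods include staining of the cultures for GFAP and for β-III tubulin, the product of Tubb3, and those images were not used here. Since the neuron label could not be supported from these markers, the samples are named by their treatment.

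Markers of other cell types were counted too. Of 7 annotated erythroid markers, Hbb-bs and Hbb-bt held sites, with 31 sites in each OGD/R 3 h library and 0 in the other 6 libraries. Hbb-bs held the most (25), and Hba-a1, Hba-a2, Alas2 and Slc4a1 were among those that held none. Of 10 markers of neutrophils and bone marrow, Ngp, S100a8 and S100a9 held sites, with 21 in each OGD/R 3 h library and 0 elsewhere. S100a8 held the most (9), and Camp, Ltf, Lcn2, Mpo, Elane, Lyz2 and Cybb held none. Of 10 markers of smooth muscle and fibroblasts 6 held sites, with 15, 12 and 7 in control, 10, 10 and 8 after OGD/R 1.5 h and 9, 11 and 14 after OGD/R 3 h. Myh11 held the most (26), and Cnn1, Col1a2, Col3a1 and Dcn held none. The part of these cell types in the results on ribosomal protein mRNAs was not tested. In bulk RNA, fewer cells of a type and less RNA per cell cannot be told apart.

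Ribosomal proteins assemble with rRNA into the subunits that decode mRNA and join amino acids. Their mRNAs are among the most abundant of a cell and begin with a pyrimidine tract that lets growth signals and stress control their translation together. m5C in mRNA is written chiefly by Nsun2 and Nsun6, and neurons depend on ribosomes in their processes for local protein synthesis.

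The longest run of called cytosines in these genes lay in Rpl8, whose protein lines the peptidyl transferase centre of the large subunit. The stretch of exon 4 around this run is shown because it held 14, 15 and 15 sites of the OGD/R 3 h libraries. The sequence is chr15:76904869-76904950 (mm10, plus strand), in exon 4 of 6 and inside the coding sequence, and capitals mark the 17 cytosines called in OGD/R 3 h. No cytosine of it was called in control or OGD/R 1.5 h.
Rpl8 exon 4: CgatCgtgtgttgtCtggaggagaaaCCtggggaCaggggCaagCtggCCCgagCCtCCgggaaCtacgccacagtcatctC

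A second stretch lay in Rack1, which encodes a WD-repeat scaffold for protein kinase C that sits on the head of the 40S subunit. It is shown because all groups had sites in it at partly different cytosines. The sequence is chr11:48802278-48802364 (mm10, plus strand), in exon 3 of 8 and in the coding sequence. Capitals mark the called cytosines of the named group, 11, 13 and 6 of 28.
Rack1 control: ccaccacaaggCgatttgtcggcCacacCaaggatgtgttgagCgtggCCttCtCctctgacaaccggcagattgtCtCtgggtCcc
Rack1 OGD/R 1.5 h: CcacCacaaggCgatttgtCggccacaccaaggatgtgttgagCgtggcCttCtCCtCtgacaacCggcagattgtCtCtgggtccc
Rack1 OGD/R 3 h: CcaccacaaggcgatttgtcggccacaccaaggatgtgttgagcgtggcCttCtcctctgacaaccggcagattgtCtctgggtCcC

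The next sequences are the 3 sites called in all 9 libraries, each with the site in capitals between 10 nt on either side. They lie in Rps19, which is needed for 40S maturation, and in Rps3 and Rps2, whose proteins sit at the mRNA entry of the 40S subunit. The windows are chr7:24888900-24888920 (plus strand, Rps19 exon 5), chr7:99483618-99483638 (minus strand, Rps3 exon 1) and chr17:24720329-24720349 (plus strand, Rps2 exon 2). They are genomic sequence. Rps19 exon 5 starts at chr7:24888907, so the bases of its window before that position lie outside the exon. The Rps3 site lies 7 nt before the start codon, and the Rps19 and Rps2 sites are bases 360 and 64 of the coding sequence.
Rps19: tgtacaggggCcgcaagctga
Rps3: cggcgcgcggCtgcaagatgg
Rps2: attaggtggcCgcggcggctt

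Some genes held sites at different cytosines in different groups. Rpl23, which sits at the interface of the subunits, was called at separate cytosines in control and OGD/R 3 h, both in exon 3 (chr11:97781361-97781381 and chr11:97781393-97781413, minus strand).
Rpl23 control: tggtgatggcCacagttaaga
Rpl23 OGD/R 3 h: gaacagacttCctgctgctgg

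After 3 h of deprivation, ribosomal protein mRNAs held more sites than in control. The control libraries held 25, 22 and 26 sites, the OGD/R 1.5 h libraries 32, 25 and 24, and the OGD/R 3 h libraries 54, 50 and 53. Each of the OGD/R 3 h libraries was above all 6 others. The means were 24.3 ± 2.08 in control, 27.0 ± 4.36 after OGD/R 1.5 h and 52.3 ± 2.08 after OGD/R 3 h (SD, n = 3 libraries). The OGD/R 3 h mean was 2.15 times that of control (log2 ratio 1.11), against 1.25 times for sites in all mRNAs. The OGD/R 1.5 h libraries overlapped those of control (log2 ratio 0.15). Sites in the markers of intestinal epithelium were higher in OGD/R 3 h as well, with a mean of 214 ± 11.6 against 106 ± 7.23 in control, and so were those in erythroid and neutrophil markers. Of the 17 intestinal markers with a site in these libraries, 7 were higher and 3 lower (Apoa4, Fabp1 and Lgals4). Of all 2267 genes with a site in them, 18.6% were higher and 18.7% lower. Among the markers Fcgbp rose most, from 12, 13 and 10 sites to 72, 69 and 66. The part of these cell types in the result was not tested. Without Rpl8 the OGD/R 3 h libraries still lay above control, with 36, 31 and 33 sites against 23, 16 and 23, and the log2 ratio was 0.69.

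**Figure D1:**
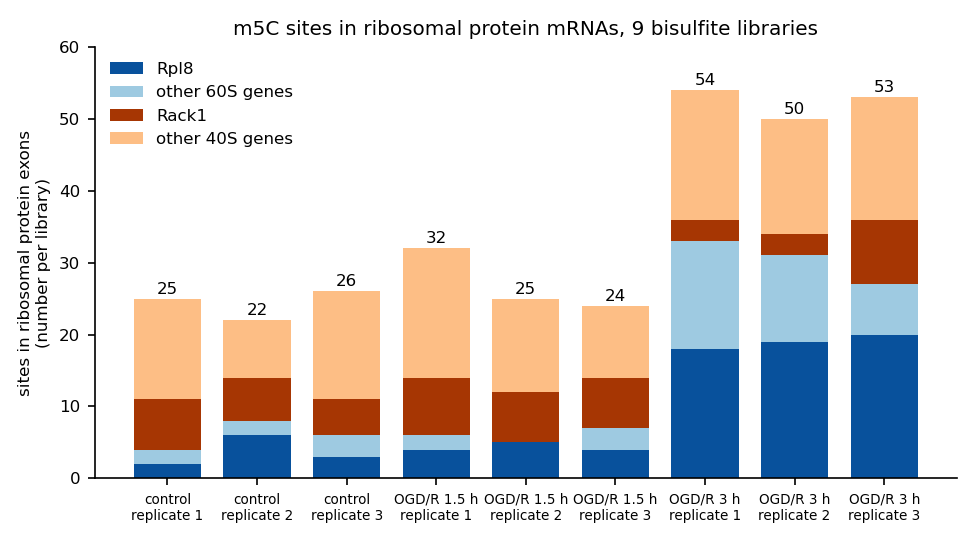
Number of m5C sites in exons of ribosomal protein genes in each of the 9 bisulfite libraries, stacked by gene class, with the total above each bar. The OGD/R 3 h libraries hold 50 to 54 sites against 22 to 26 in control, and Rpl8 alone holds 18 to 20 of them.

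As a share of all mRNA sites of a library, these genes held 0.643%, 0.531% and 0.684% in control, 0.912%, 0.703% and 0.640% after OGD/R 1.5 h and 1.03%, 1.06% and 1.12% after OGD/R 3 h. The OGD/R 3 h libraries again lay above all others, by 0.447 percentage points over the control mean. Without Rpl8 the OGD/R 3 h shares were 0.686%, 0.658% and 0.699%. They still lay above control, by 0.153 points, but under OGD/R 1.5 h replicate 1 (0.799%). The OGD/R 1.5 h libraries overlapped control and lay above it only when OGD/R 1.5 h replicate 3 was left out (0.188 points) or when sites called in at least 2 of 3 libraries were used (0.215 points).

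The number of ribosomal protein genes with a site was 13, 10 and 12 in the control libraries, the same 13, 10 and 12 in OGD/R 1.5 h and 17, 16 and 16 in OGD/R 3 h. The OGD/R 3 h libraries lay above control by 4.67 genes, but overlapped it when only sites with no other site within 10 nt were kept (3.67 genes) or only sites in genomic sequence found once (4.33 genes). Over the union of 3 libraries, 14 genes held a site in control, 16 after OGD/R 1.5 h and 22 after OGD/R 3 h. The number of all protein-coding genes with a site went the other way, from 1343, 1401 and 1324 in control to 1164, 1107 and 1115 in OGD/R 3 h. Over all 9 libraries, 33.0% of the ribosomal protein genes and 12.4% of all protein-coding genes held a site. All groups had sites in 7 members, among them Rack1, Rpl8 and Rps19, while 8 of 30 members (26.7%) held sites in OGD/R 3 h alone, 5 (16.7%) in OGD/R 1.5 h alone and 2 (6.67%) in control alone. Of all 2607 genes with a site, the shares were 10.7%, 13.0% and 16.03%.

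The subunits were then counted apart. Genes of the 60S subunit held 4, 8 and 6 sites in control and 6, 5 and 7 after OGD/R 1.5 h. After OGD/R 3 h they held 33, 31 and 27, a log2 ratio of 2.34 against control without overlap. Most of these OGD/R 3 h sites lay in Rpl8, with 18, 19 and 20 against 2, 6 and 3 in control. Rplp1 held another 7, 3 and 1, against 0 in each control library. Genes of the 40S subunit held 21, 14 and 20 sites in control, 26, 20 and 17 after OGD/R 1.5 h and 21, 19 and 26 after OGD/R 3 h, and all groups overlapped. A site was found in 12 of 56 genes of the 60S and in 18 of 35 of the 40S subunit. Of 8 like forms inside the rule, such as Rpl3l and Rps27l, only Rpl36al held a site, and the X-linked Rps4x held none.

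**Figure D2:**
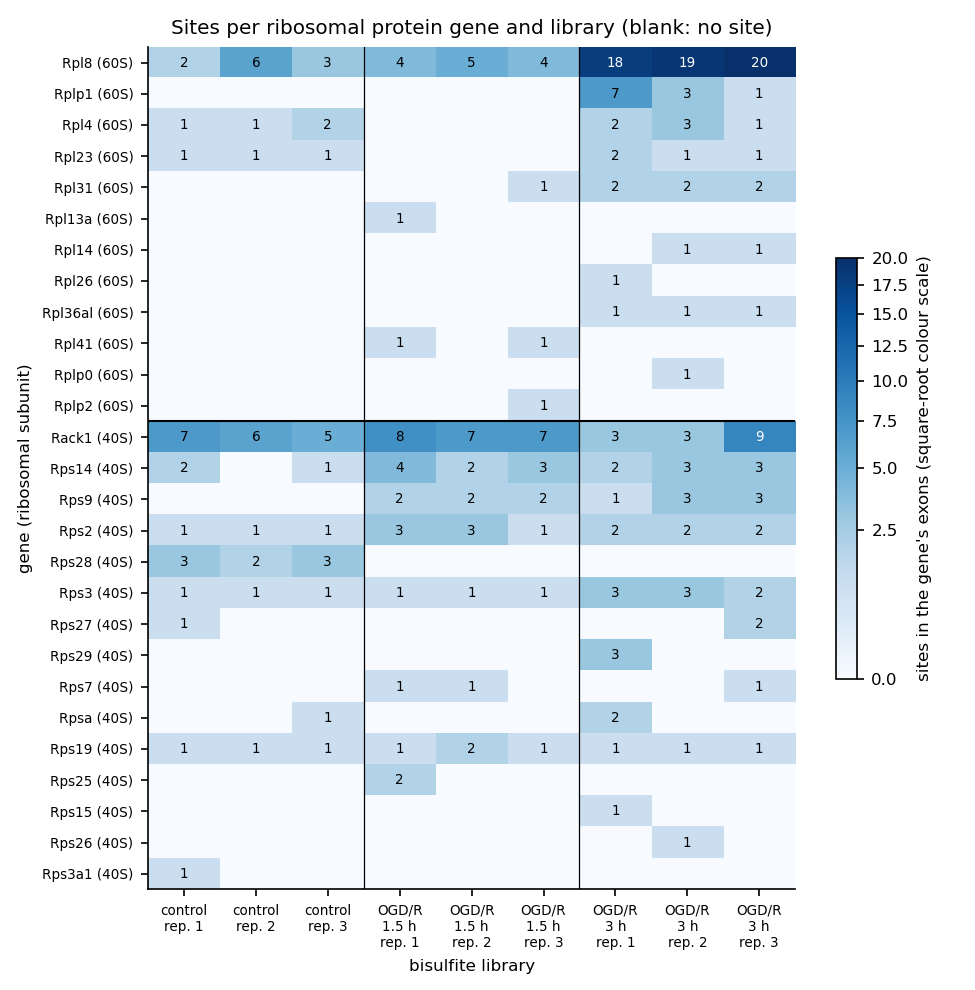
Number of sites in ribosomal protein genes described in the text, by library, with 60S genes above the line and 40S genes under it. Rpl8 stands at 18 to 20 sites in OGD/R 3 h against 2 to 6 in control, Rack1 holds sites in every library, and Rps28 holds sites only in control.

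Between OGD/R 3 h and control, the question is which messages gained or lost sites after the longer deprivation. A gene was counted as higher where every library of the treated group held more of its sites than any control library, and as lower in the reverse case. Of the 25 ribosomal protein genes with a site in these libraries, 7 (28%) were higher, namely Rpl8, Rplp1, Rps9, Rpl31, Rps3, Rpl36al and Rps2, against 18.6% of all 2267 genes with a site. Another 2 (8%) were lower, Rps28 among them, against 18.7% of all genes. With scores of at least 10 alone, 3 were higher, namely Rpl8, Rplp1 and Rps3. When only sites with no other site within 10 nt were kept, Rpl8 and Rplp1 were no longer higher, Rack1 was, and Rps28 was no longer lower.

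With 1 library left out, calls can be added to these but none can be lost. Leaving out OGD/R 3 h replicate 1 added Rpl14 and Rps14 as higher, which gave 9, and leaving out control replicate 1 added Rps14. Leaving out OGD/R 3 h replicate 3 added Rack1 as lower, which gave 3.

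Rpl8 (chr15:76904071-76906318, plus strand) held the most sites, 36 distinct cytosines of the 238 in its exons. It held 2, 6 and 3 sites in control, 4, 5 and 4 after OGD/R 1.5 h and 18, 19 and 20 after OGD/R 3 h. The OGD/R 3 h mean of 19 ± 1 was 5.18 times the control mean of 3.67 ± 2.08, without overlap. This call rests on sites close to each other. With only sites that had no other site within 10 nt, Rpl8 held 5, 4 and 3 in OGD/R 3 h against 2, 6 and 3 in control, and the groups overlapped. Rpl8 made up 15.1% of the calls in ribosomal protein genes in control, 16.05% after OGD/R 1.5 h and 36.3% after OGD/R 3 h.

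Within Rpl8 the sites changed place. In control and OGD/R 1.5 h they lay mostly in exon 2, which holds the start codon, with 5 and 6 distinct sites, and none lay in exon 4. In OGD/R 3 h exon 4 held 14, 15 and 15 sites per library, 12 of them in all 3 libraries, and exon 2 held 2 in each. All 13 cytosines of chr15:76904895-76904933 were called in OGD/R 3 h, with 11, 12 and 12 per library. No Rpl8 site was shared between control and OGD/R 3 h.

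Scores in this run of 13 cytosines differed between the libraries, with medians of 162, 372 and 78.0. Equal scores recurred within a library, such as 398 at 4 sites of OGD/R 3 h replicate 2. Counting sites within 10 nt of each other as 1, an alternative chosen after the data had been seen, left 7, 6 and 6 sites of Rpl8 in OGD/R 3 h against 2, 6 and 3 in control, again without separation. The counts for all ribosomal protein genes were then 33, 33 and 35 against 21, 19 and 21, a log2 ratio of 0.73.

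The start of the Rpl8 coding sequence held the sites that came back in control. One cytosine 2 nt before the start codon was called in all 3 control libraries with scores of 20, 2 and 22 and in no other library. Base 15 of the coding sequence was called in the 6 libraries of control and OGD/R 1.5 h, and its neighbour in the OGD/R 1.5 h libraries alone. Neither was called in OGD/R 3 h. The windows are chr15:76904301-76904321, chr15:76904317-76904337 and chr15:76904318-76904338 (plus strand). Exon 2 starts at chr15:76904303, so the bases of the first window before that position lie outside the exon.
Rpl8 control: agactcgccgCcatgggccgt
Rpl8 control and OGD/R 1.5 h: gccgtgtgatCcgagggcaga
Rpl8 OGD/R 1.5 h: ccgtgtgatcCgagggcagag

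**Figure D3:**
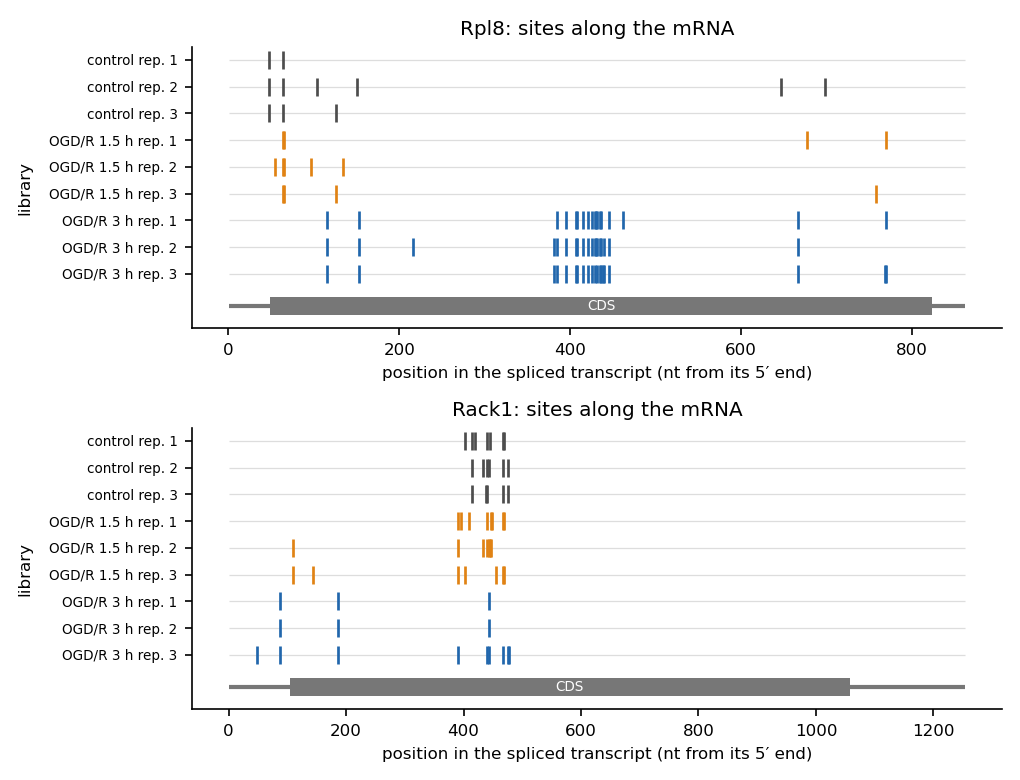
Positions of called sites along the spliced mRNAs of Rpl8 and Rack1, in nt from the 5′ end, with 1 line per library and the coding sequence (CDS) as a bar. The Rpl8 sites of OGD/R 3 h gather in exon 4, where the other 6 libraries hold none, and the Rack1 sites of control and OGD/R 1.5 h gather in exon 3.

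Other proteins of the 60S body held few sites. Rpl4, whose protein lines the exit tunnel for the new chain, held 1, 1 and 2 sites in control, 0 in all OGD/R 1.5 h libraries and 2, 3 and 1 in OGD/R 3 h. Its control sites lay in exon 6 and its OGD/R 3 h sites in exon 10, at least 551 nt apart in the mRNA. Rpl23 held 1, 1 and 1 in control, 0 after OGD/R 1.5 h and 2, 1 and 1 after OGD/R 3 h.

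Rpl31, a protein beside the exit of that tunnel, was not called in control and held 2 sites in each OGD/R 3 h library, with 1 in OGD/R 1.5 h replicate 3. Rpl36al, a like form of Rpl36a, held 1 site in each OGD/R 3 h library, 43 nt before its start codon, and none elsewhere. The other 60S genes with sites (Rpl13a, Rpl14, Rpl26 and Rpl41) held at most 1 site in any library. The Rpl31 windows are chr1:39368177-39368197 and chr1:39368204-39368224 (plus strand, exon 1), at bases 39 and 66 of the coding sequence.
Rpl31 base 39: agaagaagggCcgttctgcca
Rpl31 base 66: aggtggtgacCcgagaataca

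The P stalk is the arm of the 60S subunit that brings in the elongation factors. All 3 of its genes held a site. Rplp1 held 7, 3 and 1 sites in the OGD/R 3 h libraries and 0 in the other 6 libraries, and 7 of its 8 distinct sites lay within 22 nt of exon 3. None of the 8 was called in all 3 libraries. Rplp0, the base of the stalk, held 1 site in OGD/R 3 h replicate 2, and Rplp2 held 1 in OGD/R 1.5 h replicate 3.

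Among the 40S genes at the mRNA entry, Rps3 and Rps2 held 1 site in each control library. Rps3 held 1, 1 and 1 in OGD/R 1.5 h and 3, 3 and 2 in OGD/R 3 h, where base 17 of the coding sequence joined the site before the start codon. Rps2 held 3, 3 and 1 in OGD/R 1.5 h and 2, 2 and 2 in OGD/R 3 h. Rps9, which also lies at the entry, was not called in control and held 2, 2 and 2 sites after OGD/R 1.5 h and 1, 3 and 3 after OGD/R 3 h.

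The Rps9 sites of the treated groups shared no cytosine. Bases 56 and 73 of its coding sequence were called in all OGD/R 1.5 h libraries, and base 85 in all OGD/R 3 h libraries. Scores were 2, 31 and 6 at base 56, 1, 8 and 13 at base 73 and 5, 20 and 1 at base 85. The spliced sequence around base 85 had an exact copy elsewhere in mm10, with C read as T. Reads of that copy cannot be told apart from those of Rps9. The windows are chr7:3704397-3704417, chr7:3704414-3704434 and chr7:3704426-3704446 (plus strand, exon 2).
Rps9 OGD/R 1.5 h, base 56: ccacggagacCcttcgagaag
Rps9 OGD/R 1.5 h, base 73: gaagtcgcgtCtcgaccagga
Rps9 OGD/R 3 h, base 85: cgaccaggagCtaaagttgat

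Rps14, on the side of the 40S subunit where the mRNA leaves, held 9 distinct sites, with 2, 0 and 1 in control, 4, 2 and 3 after OGD/R 1.5 h and 2, 3 and 3 after OGD/R 3 h.

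Rps28, which contacts the mRNA near its exit, went the other way. It held 3, 2 and 3 control sites and 0 in all 6 treated libraries, at 4 cytosines near the start of the coding sequence. All sites of Rps28 lay in sequence with a second exact copy elsewhere in mm10, so reads of a copy cannot be told apart from their own. The Rps28 windows called in all control libraries are chr17:33824450-33824470 and chr17:33824439-33824459 (minus strand, exon 1).
Rps28 base 13: ggacacgagtCgcgtgcagcc
Rps28 base 24: gcgtgcagccCatcaagctgg

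Rack1 held 23 distinct sites, of which 18 lay within 87 nt of exon 3. It held 7, 6 and 5 sites in control, 8, 7 and 7 after OGD/R 1.5 h and 3, 3 and 9 after OGD/R 3 h. OGD/R 3 h replicate 3 stood apart with 6 sites in exon 3, against 1 and 1 in the other replicates. In exon 1, the control libraries held no site and the OGD/R 3 h libraries 2, 2 and 3. The share of Rack1 in the calls of ribosomal protein genes was 24.7% in control, 27.2% after OGD/R 1.5 h and 9.55% after OGD/R 3 h.

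Other 40S genes held few and scattered sites. Rps29 held 3 in OGD/R 3 h replicate 1 alone, Rps25 held 2 in OGD/R 1.5 h replicate 1 alone, and Rps27 held 1 in control replicate 1 and 2 in OGD/R 3 h replicate 3. Rpsa, the laminin receptor protein of the 40S subunit, held 1 in control replicate 3 and 2 in OGD/R 3 h replicate 1. Rps7 held 1 site in each of 3 treated libraries, and Rps15, Rps26 and Rps3a1 held 1 site in 1 library each.

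Between OGD/R 1.5 h and control, the shorter deprivation was compared in the same way. Of 22 ribosomal protein genes with a site in these libraries, 1 (4.55%) was higher, namely Rps9, against 8.55% of all 2328 genes with a site. Another 3 (13.6%) were lower, namely Rps28, Rpl4 and Rpl23, against 15.1% of all genes. Neither count of members was above its share among all genes. Both comparisons used the same control libraries.

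The count of higher genes could only stay or rise with 1 library left out. It became 3 without OGD/R 1.5 h replicate 2 (Rpl41 and Rps14 added) or without OGD/R 1.5 h replicate 3 (Rps2 and Rps7 added). The same count of 3 came without control replicate 1 (Rack1 and Rps14 added). It was 2 without control replicate 2, where Rpl8 was added.

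Among the sites called in at least 6 libraries, those of Rps19 and Rps3 had the highest median scores, 260 and 126. Rps19 scored 427, 598 and 883 in control, 271, 107 and 62 after OGD/R 1.5 h and 260, 117 and 129 after OGD/R 3 h. Both treated groups lay under control without overlap, with means of 636 ± 230 in control, 147 ± 110 after OGD/R 1.5 h and 169 ± 79.3 after OGD/R 3 h. It was 1 of 3 ribosomal protein sites called in all 6 libraries of OGD/R 3 h and control, and 15.6% of 250 such mRNA sites had lower scores in OGD/R 3 h. In OGD/R 1.5 h it was 1 of 4, against 13.6% of 294 mRNA sites.

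Rps3 scored 82, 60 and 173 in control, 182, 131 and 437 after OGD/R 1.5 h and 36, 45 and 126 after OGD/R 3 h, and its groups overlapped between control and each treatment. Rps2 scored 3, 5 and 18 in control, 3, 39 and 10 after OGD/R 1.5 h and 5, 2 and 7 after OGD/R 3 h, also with overlap. Sites called in 6 libraries were found in Rps14 (median score 39), Rpl8 (12.5) and Rack1 (9.5 and 7.5).

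**Figure D4:**
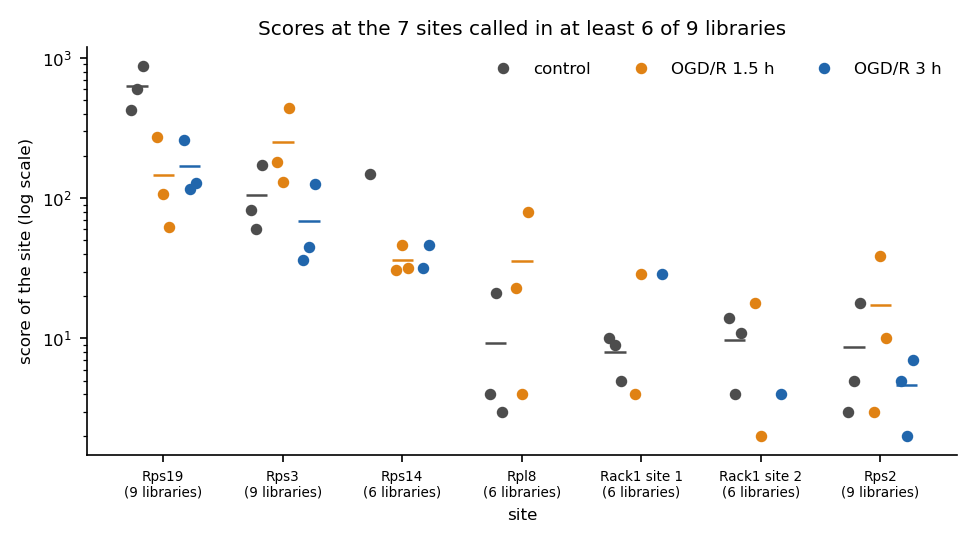
Score (log scale) at the 7 ribosomal protein sites called in at least 6 of 9 libraries, with 1 point per library and a line at the mean where all 3 libraries of a group have the call. At Rps19 the control scores of 427 to 883 lie above all scores of the treated groups.

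Over all sites in these genes, the median score was 18, 11 and 16 in the control libraries, 29, 14 and 9.5 in OGD/R 1.5 h and 46.5, 50 and 38 in OGD/R 3 h. These medians were higher in OGD/R 3 h than in any other library. Without Rpl8 the OGD/R 3 h medians were 37.5, 32 and 27, against 18, 9.5 and 16 in control and 29, 22.5 and 9.5 in OGD/R 1.5 h, which overlapped OGD/R 3 h. The medians over all mRNA sites were 12, 13 and 11 in OGD/R 3 h and 9, 10 and 10 in control.

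Most sites in ribosomal protein genes belonged to 1 group. Of the 79 distinct sites in OGD/R 3 h, 68 (86.1%) were found in no other group, against 72.7% for all mRNA sites. The shares were 60.5% of 43 in control and 66.7% of 51 in OGD/R 1.5 h, against 61.9% and 61.6% of all mRNA sites. OGD/R 3 h and control shared 9 sites, which are 11.4% of the first and 20.9% of the second, against 16.9% and 20.5% of all mRNA sites. The first share was 6.52% with sites in at least 2 of 3 libraries. Of the 79, 32 (40.5%) were called in all 3 libraries, against 30.95% of all mRNA sites. Rpl8 carried most of the difference from all mRNA sites in both shares. Without it, OGD/R 3 h shared 16.07% of its 56 sites with control and 30.4% were called in all 3 libraries, against 16.9% and 30.9% of the other mRNA sites, while 82.1% were found in no other group, against 72.7%.

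Some genes had sites in 2 groups at no common cytosine. Control and OGD/R 3 h had 11 ribosomal protein genes with sites in common, of which 5 (45.5%) shared no cytosine (Rpl23, Rpl4, Rpl8, Rps27 and Rpsa), close to the 46.5% of all 995 such genes. Each of the 8 genes with sites in both control and OGD/R 1.5 h shared at least 1, while 37.3% of all 1231 such genes shared none. Sites called in all 3 libraries of a group and in no other group numbered 6 (14.0%) in control, 5 (9.80%) after OGD/R 1.5 h and 27 (34.2%) after OGD/R 3 h, and 15 of the 27 lay in Rpl8. The shares over all mRNA sites were 14.95%, 8.93% and 22.4%, and without Rpl8 the OGD/R 3 h share was 21.4%.

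Along the mRNA, the sites lay mainly in the coding sequence. Of 147 sites, 131 (89.1%) were in the coding sequence, 14 (9.52%) in the 5′UTR and 2 (1.36%) in the 3′UTR. The shares over all mRNA sites were 72.2%, 18.8% and 8.98%, and over the cytosines of the 30 mRNAs 66.9%, 13.7% and 19.4%. Per 1000 cytosines there were 32.0 sites in the coding sequence, 16.7 in the 5′UTR and 1.69 in the 3′UTR.

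No site lay in the first 10 nt of an annotated transcript, and the site closest to an annotated 5′ end was at nt 29. Whether the pyrimidine tract stands at these annotated ends was not checked, and the coverage there is unknown. The 3′UTR sites were in Rpl26 and Rpl41. Within 100 nt of the stop codon lay 28 sites (19.05%), against 6.01% of all mRNA sites and 18.5% of the cytosines of these mRNAs.

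Within 100 nt of the start codon lay 55 sites (37.4%), against 24.4% of all mRNA sites and 24.8% of the cytosines of these mRNAs. In single libraries the share was 40%, 45.5% and 57.7% in control, 40.6%, 60% and 54.2% after OGD/R 1.5 h and 29.6%, 32% and 35.9% after OGD/R 3 h. The OGD/R 3 h libraries lay under control without overlap, and the mean share fell by 15.2 percentage points. The number of these sites went the other way, from 10, 10 and 15 in control to 16, 16 and 19 in OGD/R 3 h, without overlap. Sites elsewhere in these mRNAs rose from 15, 12 and 11 to 38, 34 and 34, so the share fell while the count rose. Without Rpl8 the difference in share was 6.71 points in the other direction and the libraries overlapped. The shares were then 41.7%, 48.4% and 54.5% in OGD/R 3 h and 34.8%, 37.5% and 52.2% in control. The difference in share also lost its separation, at -3.26 points, when only sites with no other site within 10 nt were kept.

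By the bases after the cytosine, 34 sites (23.1%) were in CG, 47 (32.0%) in CHG and 66 (44.9%) in CHH context, where H is any base but G. The cytosines of the 30 mRNAs were 15.8%, 25.1% and 59.1%, and all mRNA sites 22.4%, 37.9% and 39.7%. The CHH share was 44%, 50% and 50% in control, 34.4%, 52% and 37.5% after OGD/R 1.5 h and 40.7%, 38% and 45.3% after OGD/R 3 h. All groups overlapped, and OGD/R 3 h lay under control only without OGD/R 3 h replicate 3 (-8.63 points), without control replicate 1 (-8.66 points) or with sites called in at least 2 of 3 libraries (-15.3 points). OGD/R 1.5 h did so without its replicate 2 (-12.1 points) or with the last of these settings (-12.7 points). Over all mRNA sites the mean CHH share went the other way, from 33.3% in control to 38.2% after OGD/R 1.5 h and 41.8% after OGD/R 3 h, without overlap with control. The CHG share of ribosomal protein sites was 28%, 22.7% and 30.8% in control and higher in every OGD/R 1.5 h library, with 40.6%, 32% and 45.8%, a mean difference of 12.3 points against 0.510 over all mRNA sites. In OGD/R 3 h it was 38.9%, 36% and 30.2% and overlapped control. The OGD/R 1.5 h shares rest on 13, 8 and 11 CHG sites and those of control on 7, 5 and 8. No alternative setting was run for the CHG share.

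**Figure D5:**
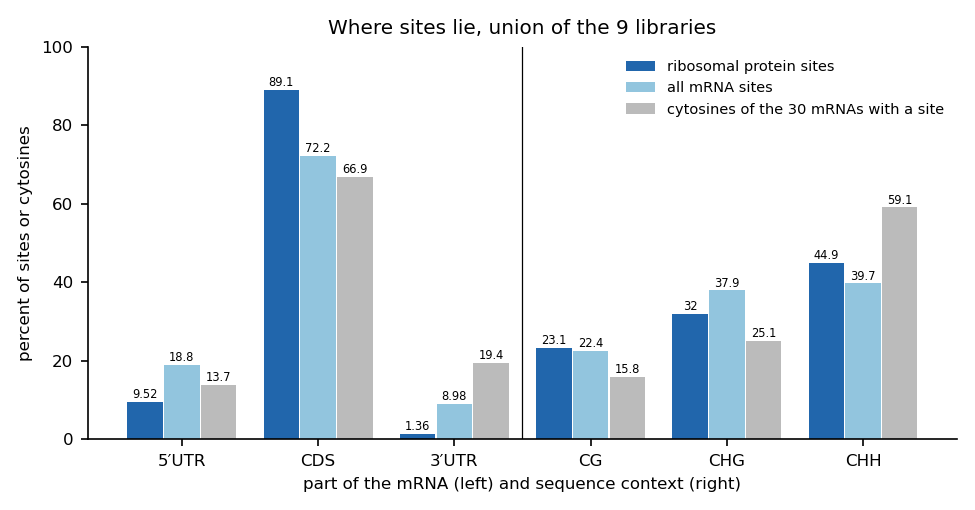
Percent of ribosomal protein sites, of all mRNA sites and of all cytosines of the 30 mRNAs with a site, by part of the mRNA and by sequence context, over the union of 9 libraries. The coding sequence holds 89.1% of the ribosomal protein sites and 66.9% of the cytosines, and CHH 44.9% against 59.1%.

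Sequence around the sites was rich in G. Within 10 nt of a ribosomal protein site 35.4% of bases were G, against 27.0% around all cytosines of these mRNAs and 35.5% around all mRNA sites. The pattern CNGGG, the motif of Nsun2 with the site as its C, was present at 7 sites (4.76%), against 3.27% of all mRNA sites and 1.96% of the cytosines. Without Rpl8 it was present at 3 of 111 sites (2.70%), under the share of all mRNA sites. CTCCA, the motif of Nsun6, was present at none. Both patterns were read on the strand of the site. In the coding sequence the sites were spread over codon positions 1, 2 and 3 with 42, 45 and 44 of 131, where the cytosines stood at 29.0%, 29.6% and 41.4%.

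Many ribosomal protein genes have processed pseudogenes with nearly the same sequence. With C read as T, as bisulfite reads are aligned, the spliced 31 nt around a site had a second exact copy in mm10 for 52 of the 147 sites (35.4%). In 16 of the 30 genes all sites had such a copy, among them Rpl31, Rpl23, Rpsa and Rps28, and in 8 genes no site had one. Rplp1 had 7 of 8 sites with a copy, Rpl8 4 of 36 and Rack1 1 of 23.

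Leaving these sites out, an alternative chosen after the data had been seen, kept Rpl8, Rps2, Rps3 and Rpl36al as higher in OGD/R 3 h and left no gene as lower. The log2 ratio of sites per library was then 1.09. In OGD/R 1.5 h Rps9 was kept as higher and Rpl4 as lower.

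Genes close to the family were counted as well. Fau encodes a ribosomal protein fused to a protein like ubiquitin and held 1 site in control replicate 2. Mitochondrial ribosomal proteins, which build the separate ribosome of that organelle, held sites in 11 of 78 genes, with 2, 2 and 1 sites in control, 4, 6 and 9 after OGD/R 1.5 h and 1, 1 and 2 after OGD/R 3 h. Of the 6 with a site in OGD/R 3 h or control, 1 was higher in OGD/R 3 h (Mrpl48) and none was lower, against 18.6% and 18.7% of all genes with a site. Of 22 genes of ribosome assembly and regulation, 3 held sites, namely Larp1, Eif6 and Ncl, and 1 of these 3 (Eif6) was higher in OGD/R 1.5 h, with 3 sites in each library against 2, 1 and 1. Of all genes with a site, 8.55% were higher. Larp1 binds the pyrimidine tract of ribosomal protein mRNAs and held 6, 7 and 3 sites in control, 2, 4 and 5 after OGD/R 1.5 h and 3, 3 and 5 after OGD/R 3 h.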

How the data were processed

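The authors trimmed reads with Cutadapt 1.9.3, mapped the trimmed reads to mm10 using meRanGh and made the calls of each library with meRanCall. Per the labels, bisulfite and mock data entered each list. The deposited value is a score, not normalized for depth. The 9 mock libraries were not analysed here. Sites were assigned to RefSeq exons with Python 3.11.15 and pysam 0.24.0, and the start or stop region reaches 100 nt from the codon in both directions. The search for copies and the calls of genes were tested on simulated data. The members and lists were chosen with earlier results of these data known. Named are the 8 genes with most sites, the 5 largest rises and falls in mean sites among genes without overlap, the network nodes named by the study, genes with a site in all libraries, the 6 highest median scores among sites in at least 6 libraries, and the P stalk. Genes outside this rule were chosen after their values were seen. Alternatives were sites called in at least 2 of 3 libraries, a score of at least 10, no other site within 10 nt, sequence found once, no Rpl8, 50 nt around the codon, and each library left out. Counting runs as 1 and keeping spliced windows found once were chosen after seeing the data.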

Additional observations from a re-analysis of the deposited data

Results flagged for a closer look

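Changes in opposite directions at the 2 times of deprivation were seen in the totals of all sites, not in the ribosomal protein genes. Sites per library were lower in every OGD/R 1.5 h library than in any control library (mean difference -443.3) and higher in every OGD/R 3 h library (1410.7). The mRNA sites per library did the same (-339.7 and 969.7), and so did the median score of mRNA sites (-2.67 and 2.33). Whether the 2 times differ was not tested.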

How the results depend on the processing

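Sites per library in OGD/R 3 h stayed above control without overlap under all 13 alternatives. The 6 of these that left out 1 library could not have brought an overlap. Log2 ratios were 1.40 for sites in at least 2 of 3 libraries and 1.52 for a score of at least 10. They were 0.70 for sites with no other within 10 nt, 0.69 without Rpl8 and 0.73 for runs counted as 1. The share of mRNA sites was higher by 0.625, 0.829, 0.344, 0.153 and 0.314 points under the same settings. Genes higher in OGD/R 3 h were 3 with a score of at least 10 and 4 with spliced windows found once. Genes lower were 1 with no other site within 10 nt and 0 with genomic or spliced windows found once. The start codon share differed by -24.4 points with a score of at least 10, by -3.26 with no other site within 10 nt and, turned in direction, by 6.71 without Rpl8. The CHH share differed by -15.3, 5.46 and 5.66 points with sites in at least 2 libraries, a score of at least 10 and no other site within 10 nt.

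In OGD/R 1.5 h, the share of mRNA sites differed by -0.0150 points and the CHH share by 7.84 points with no other site within 10 nt. Genes higher were 2 with sites in at least 2 libraries, 0 with a score of at least 10, and 1 to 3 with each library left out. Genes lower were 1 with genomic or spliced windows found once. The cause of these moves was not tested. Of 182 alternative values over 16 results, 142 moved by less than the spread between libraries or, for counts, by at most 1.5 times. No paired analysis was run. The results come from no test, and a block by replicate number leaves a difference of group means as it is. Differences within numbers were not computed. Depth per library is unknown, and so is how many sites it hides.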

Other observations

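The introns of the ribosomal protein genes held more sites than their exons. On the same strand, 446 distinct intron sites were called, 423 of them inside an annotated snoRNA, a small RNA that guides the modification of rRNA and is cut from the host intron. The counts were 140, 146 and 169 in control, 222, 231 and 191 after OGD/R 1.5 h and 253, 240 and 267 after OGD/R 3 h, so both treated groups lay above control without overlap. The hosts with most intron sites were Rpl13a (58), Rack1 (51) and Rps12 (46). Rpl13a held 1 site in its exons and Rps12 none. The opposite strand of the ribosomal protein genes held no site.

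Of 17 other mRNAs known to begin with a pyrimidine tract, 14 held sites, with 30, 25 and 31 in control, 27, 32 and 29 after OGD/R 1.5 h and 71, 59 and 62 after OGD/R 3 h. Of the 12 with a site in OGD/R 3 h or control, 6 were higher and 1 was lower in OGD/R 3 h, against 18.6% and 18.7% of all 2267 genes with a site in these libraries. Eef1a1, which carries aminoacyl-tRNA to the ribosome, held 1, 0 and 1 sites in control, 6, 5 and 6 after OGD/R 1.5 h and 31, 21 and 23 after OGD/R 3 h. Eef2, which moves the ribosome along the mRNA, held 18, 18 and 19 in control, 14, 14 and 11 after OGD/R 1.5 h and 21, 20 and 20 after OGD/R 3 h. Tpt1 was not called in control and held 0, 1 and 1 sites after OGD/R 1.5 h and 5 in each OGD/R 3 h library. Npm1, a chaperone of ribosome assembly, held 1 in each control library and 0 in OGD/R 3 h.

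Annotated pseudogenes of ribosomal proteins (301) held 48 distinct sites on their strand, with 3, 6 and 4 in control, 6, 11 and 10 after OGD/R 1.5 h and 7, 9 and 3 after OGD/R 3 h.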
